A study of Mus musculus with 15 samples.

Results

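Bile acid synthesis and its control was followed in sorted mouse hepatocytes through 10 genes chosen by symbol from the pathway's steps, of 55984 genes in the count table. They were the classic pathway enzymes Cyp7a1 and Cyp8b1, the alternative pathway enzymes Cyp27a1 and Cyp7b1, the ring-modifying enzymes Hsd3b7 and Akr1d1, the conjugating enzymes Slc27a5 and Baat, and the nuclear receptor genes Nr0b2 and Nr1h4. All 10 were listed in the table. Of these, 9 passed the filter on low counts and were tested, and Hsd3b7, with 0 counts in every library, did not.

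Hepatocytes turn cholesterol into bile acids along a classic route that starts with Cyp7a1 in the endoplasmic reticulum and an alternative route that starts with Cyp27a1 in mitochondria, and both routes share later ring and side chain steps before the product is joined to taurine or glycine. Cyp8b1 sets how much of the product becomes cholic acid. Bile acids bind the receptor FXR, the product of Nr1h4, which raises Nr0b2 (SHP), and SHP lowers Cyp7a1 and Cyp8b1. In the liver lobule, Cyp7a1 is known to be highest near the central vein.

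The cells were hepatocytes from the livers of wild type (WT) C57BL/6JJcl adult male mice. No treatment of the mice is given. The isolated cells were incubated with the DNA dye Hoechst, reserpine and DNase, then stained with TO-PRO-3 to gate out dead cells, and sorted by flow cytometry. The 4 populations were 2n-whole (diploid DNA content), 4n-whole (tetraploid DNA content, mononucleated and binucleated cells together), and 2 fractions of the tetraploid cells, 4n-bottom with a lower and 4n-top with a higher peak of the Hoechst signal. The sort enriched 4n-bottom for binucleated and 4n-top for mononucleated cells, but 4n-top still held many binucleated cells, so neither fraction is a pure model of a nuclear configuration. The same 4 mice gave 2n-whole, 4n-whole and 4n-bottom, and mice 2, 3 and 4 gave 4n-top, for 15 libraries of bulk RNA. The 4n-top population of mouse 1 was not analysed here.

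Total counts ranged from 22049498 to 42096421 per library, with the lowest in 4n-whole of mouse 2, and 3 counts corresponded to 0.0713 to 0.136 CPM, a limit that covers counting error only. Values are given as CPM, a gene's counts scaled to the total of its library after TMM normalization, for 1 gene across libraries and in RPKM, CPM divided by exon length in kilobases, between genes. Hepatocyte markers summed to between 88710 and 120900 CPM in every library, while endothelial markers reached at most 33.1 CPM, cholangiocyte markers 47.8 CPM, Kupffer cell markers 9.02 CPM, stellate cell markers 6.30 CPM and lymphocyte markers 1.15 CPM. A gene was called when its adjusted p was under 0.05 and its log2 fold change was above 0.5 in size, with edgeR's quasi-likelihood test, the mouse as a block and Benjamini-Hochberg adjustment over 17488 genes. In bulk samples of this kind, fewer cells of a type and less RNA per cell cannot be told apart.

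In 4n-whole versus 2n-whole, Cyp7a1, Cyp8b1 and Cyp27a1 rose and no member fell. These are the entry enzyme of each route and the enzyme for cholic acid. Thus 3 of 9 tested members were called, all higher in 4n-whole, where 3.47% of all tested genes were called and 1.74% were called higher. The members were chosen with earlier results of these data known, so such shares, here and below, are a description. The other 6 had log2 fold changes between −0.12 and 0.11. The median log2 fold change was 0.05 over the 9 members and −0.01 over all tested genes.

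**Figure D1:**
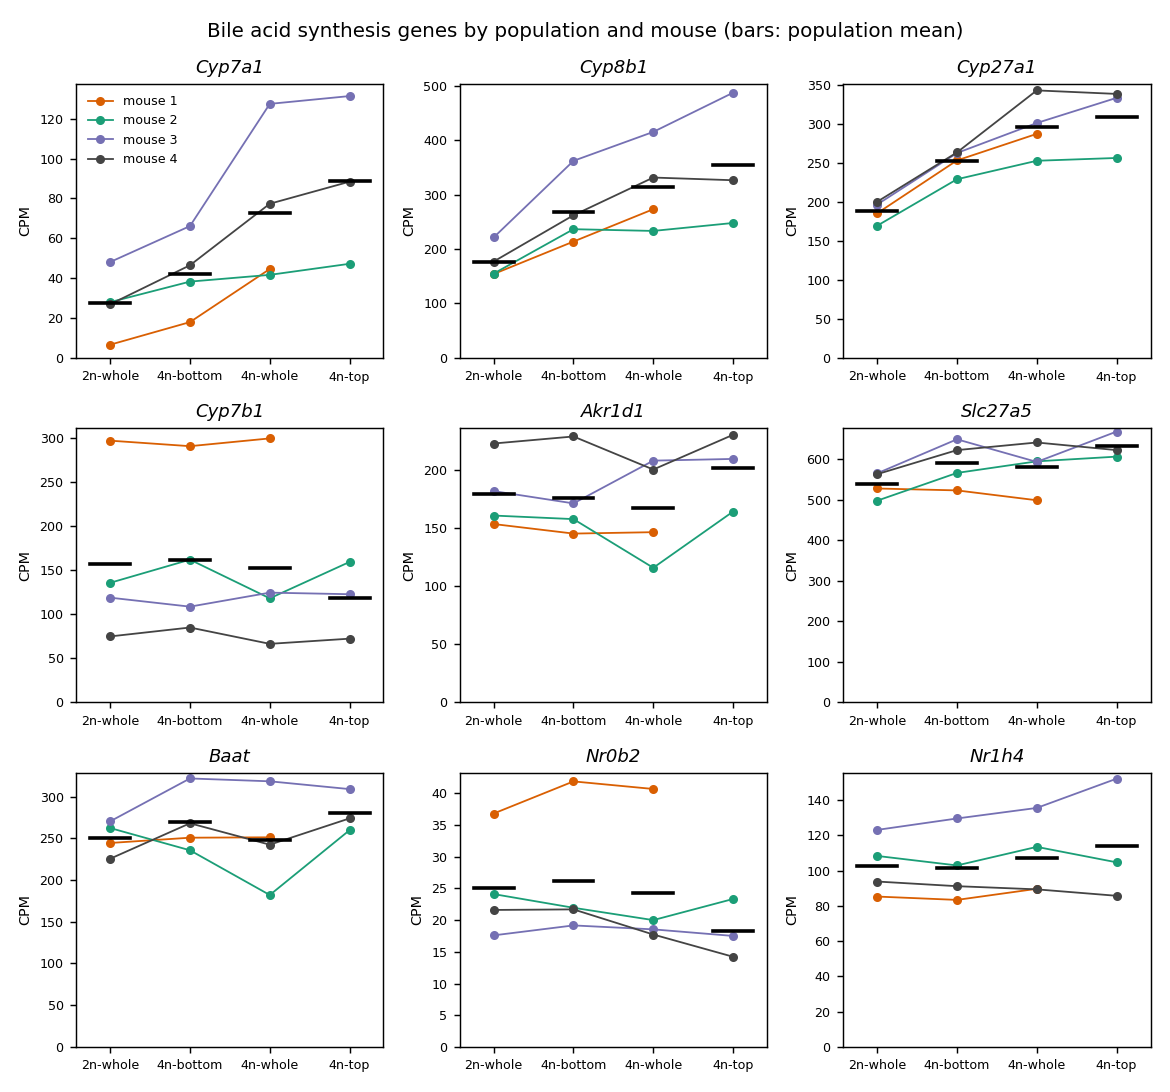
CPM (linear axis from 0) of the 9 detected members in the 4 populations, ordered 2n-whole, 4n-bottom, 4n-whole and 4n-top; each line joins the libraries of 1 mouse and black bars are population means (n = 4, 4n-top n = 3). Cyp7a1, Cyp8b1 and Cyp27a1 were higher in 4n-whole than in 2n-whole in all 4 mice. For Cyp7b1 and Nr0b2 mouse 1, which has no 4n-top library, stood above the others in every other population.

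Cyp7a1 (chr4:6265612-6275633 in GRCm39, minus strand), the rate-limiting enzyme of the classic route, had 6.61, 28.0, 48.1 and 26.9 CPM in 2n-whole of mice 1 to 4. In 4n-whole it had 44.6, 41.7, 127 and 77.3 CPM in the same order. The populations overlapped, because 2n-whole of mouse 3 was above 4n-whole of mice 1 and 2, but within each mouse 4n-whole was the higher, by 1.49-fold to 6.75-fold. The mean was 27.4 ± 16.9 CPM in 2n-whole and 72.8 ± 39.9 CPM in 4n-whole (SD, n = 4 each). The fitted log2 fold change was 1.54 (SE 0.19, edgeR adjusted p = 4.77e-06). Mouse 1 had the lowest 2n-whole level and the largest fold, and without it the log2 fold change was 1.17 (adjusted p = 7.2e-05).

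Cyp8b1 (chr9:121743422-121745371 in GRCm39, minus strand, with its whole transcript in 1 exon), the sterol 12-alpha-hydroxylase, had 154, 155, 221 and 177 CPM in 2n-whole of mice 1 to 4. In 4n-whole it had 273, 233, 415 and 331 CPM. No 4n-whole library was as low as any 2n-whole library. Within mice the rise was 1.51-fold to 1.88-fold, a narrower range than that of Cyp7a1, and the fitted log2 fold change was 0.81 (SE 0.09, edgeR adjusted p = 9.87e-07).

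Cyp27a1 (chr1:74752314-74777056 in GRCm39, plus strand), the mitochondrial sterol 27-hydroxylase, had 185, 169, 197 and 200.2 CPM in 2n-whole. In 4n-whole of mice 1 to 4 it had 287, 253, 301 and 343 CPM. The populations did not overlap, as for Cyp8b1, and these 2 of the 9 members compare with 5.80% of all tested genes whose populations did not overlap. The log2 fold change was 0.65 (SE 0.08, edgeR adjusted p = 5.62e-06). Of its exon bases, 32.8% lie opposite exons of Prkag3, a gene of the other strand. Prkag3 had 0 to 26 counts per library against at least 5616 for Cyp27a1. Whether reads in the shared bases were dropped in counting was not tested, and such a loss would lower the counts of both genes.

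These calls rested on comparing libraries of the same mouse. Without the block for the mouse, Cyp27a1 was still called (log2 fold change 0.66, edgeR adjusted p = 0.031), whereas Cyp7a1 (1.41, adjusted p = 0.257) and Cyp8b1 (0.83, adjusted p = 0.136) were not. All 3 were called with DESeq2 and the block, and without any 1 mouse.

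**Figure D2:**
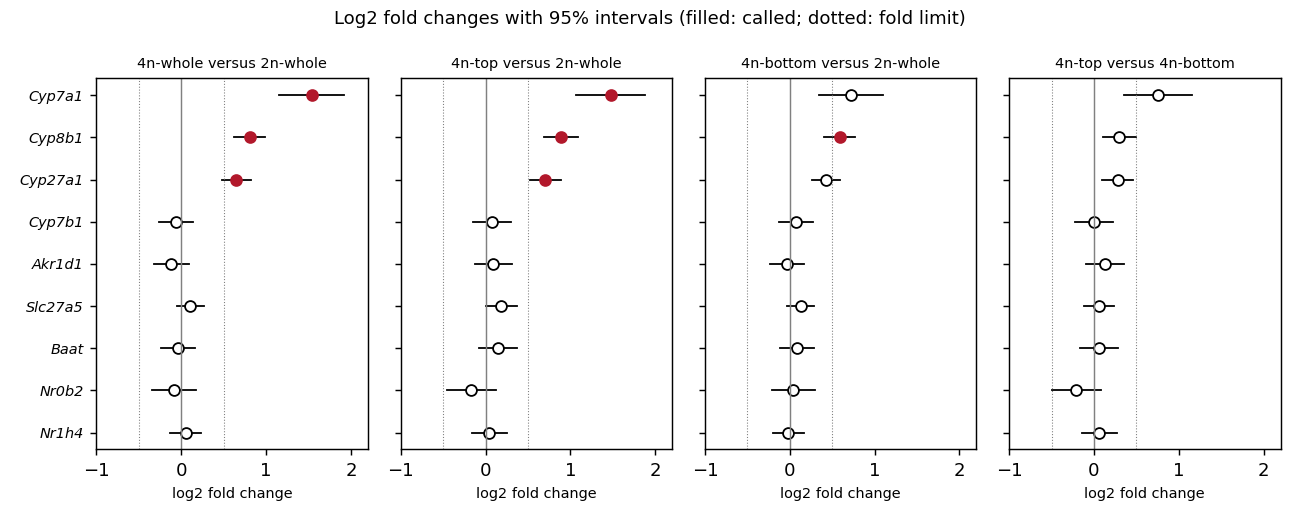
Log2 fold changes of the 9 tested members in 4 comparisons (edgeR with the mouse as block, all 15 libraries); horizontal lines are 95% intervals, filled red points were called and dotted lines mark the fold limit of 0.5. Cyp7a1, Cyp8b1 and Cyp27a1 lie to the right in each comparison, and the other 6 members lie near 0.

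The tetraploid fractions were then set against the same 2n-whole libraries, so that the 3 comparisons with 2n-whole share their controls and are given side by side. In 4n-top versus 2n-whole, 3 of 9 members were called, all higher, where 0.961% of tested genes were called and 0.44% were called higher. In 4n-bottom versus 2n-whole, 1 of 9 was called, with 0.463% of tested genes called and 0.234% called higher.

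In 4n-top of mice 2, 3 and 4, Cyp7a1 had 47.2, 131 and 88.4 CPM. In 4n-bottom of mice 1 to 4 it had 17.9, 38.3, 66.1 and 46.5 CPM. In every mouse with both fractions, 4n-bottom lay between 2n-whole and 4n-top. Against 2n-whole the log2 fold change was 1.48 in 4n-top (SE 0.20, edgeR adjusted p = 2.81e-05). It was 0.72 in 4n-bottom (SE 0.18, edgeR adjusted p = 0.0806), higher in 4 of 4 mice but not called.

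That 4n-bottom value of Cyp7a1 lay near the threshold. It was called without mouse 2 (adjusted p = 3.02e-04), without mouse 3 (adjusted p = 0.0369), with no filter on low counts (2.27e-07), with ComBat-seq and DESeq2 (0.0149) and with only the compared libraries (0.013). With DESeq2 and the block the adjusted p was 0.273.

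Cyp8b1 in 4n-top of mice 2 to 4 had 248, 487 and 326 CPM. In 4n-bottom of mice 1 to 4 it had 214, 236, 362 and 262 CPM. In 4n-top it did not overlap 2n-whole, and in 4n-bottom it did. It was the member called in all 3 comparisons with 2n-whole, at a log2 fold change of 0.89 in 4n-top (SE 0.10, edgeR adjusted p = 2.55e-06) and 0.59 in 4n-bottom (SE 0.09, edgeR adjusted p = 4.47e-04).

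The 250 bases before its start, in the RefSeq promoter table for GRCm38.p6 (chr9:121916306-121916555, minus strand), are shown because they hold letters that 2 known activators of the gene bind. Capitals mark CAAAGTCCA, a site for HNF4A, from 67 to 59 bases before the start, and CAAGGGCA, a match to the NR5A2 (LRH-1) letters CAAGGNCA, from 60 to 53 bases before it, which overlap.
Cyp8b1: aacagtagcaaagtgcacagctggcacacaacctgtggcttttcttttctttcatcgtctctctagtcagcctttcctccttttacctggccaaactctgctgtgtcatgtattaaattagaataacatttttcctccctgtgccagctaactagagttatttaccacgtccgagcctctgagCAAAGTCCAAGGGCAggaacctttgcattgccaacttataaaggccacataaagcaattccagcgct
Searched on both strands, CAAAGTCCA occurs in 0.384% and CAAGGNCA in 5.53% of the 32851 windows of this length in the table, and a match is not evidence of binding here. The transcripts of both factors were measured, and in 4n-whole versus 2n-whole the log2 fold change was 0.08 for Hnf4a (edgeR adjusted p = 0.662) and 0.06 for Nr5a2 (edgeR adjusted p = 0.814).

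Cyp27a1 in 4n-top had 256, 333 and 339 CPM. The libraries of 4n-bottom had 253, 229, 263 and 264 CPM. Neither fraction overlapped 2n-whole. In 4n-top versus 2n-whole 3 of 9 members did not overlap (Cyp8b1, Cyp27a1 and Slc27a5), against 9.21% of tested genes, and in 4n-bottom versus 2n-whole 1 of 9, against 3.52%. In 4n-top the log2 fold change was 0.71 (SE 0.09, edgeR adjusted p = 1.42e-05). In 4n-bottom it was 0.43 (SE 0.08, edgeR adjusted p = 0.0067), below the fold limit, with within-mouse folds in the narrow range of 1.32 to 1.37. Without the block, no member was called in either of these comparisons, with adjusted p-values of 0.395, 0.124 and 0.0661 for Cyp7a1, Cyp8b1 and Cyp27a1 in 4n-top and 0.881 for Cyp8b1 in 4n-bottom.

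The fractions were next compared with each other, which asks whether bile acid genes differ with nuclear configuration at the same DNA content. In 4n-top versus 4n-bottom, edgeR called 0 of 9 members, where 0.0114% of tested genes were called. At an unadjusted p under 0.05 there were 3 members, all higher in 4n-top, where 2.79% of tested genes passed and 1.19% passed and were higher. They were again Cyp7a1, Cyp8b1 and Cyp27a1.

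Cyp7a1 was 1.23-fold, 1.99-fold and 1.90-fold higher in 4n-top than in 4n-bottom in mice 2, 3 and 4. The log2 fold change was 0.76 (SE 0.20, 95% interval 0.35 to 1.16, unadjusted p = 7.09e-04, edgeR adjusted p = 0.826). For Cyp8b1 it was 0.30 (95% interval 0.10 to 0.50, adjusted p = 1) and for Cyp27a1 0.28 (95% interval 0.10 to 0.46, adjusted p = 1), each higher in 3 of 3 mice. DESeq2 with the block called 0 members. Cyp7a1 alone was called with no filter on low counts (adjusted p = 5.53e-06), with ComBat-seq and DESeq2 (0.0491), with only the compared libraries (0.00283) and without mouse 2 (7.28e-04).

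Akr1d1 and Slc27a5 were also higher in 4n-top in 3 of 3 mice, but by at most 1.22-fold and 1.07-fold. In mouse 4 the fractions were nearly equal, at 1.006-fold for Akr1d1 and 1.00005-fold for Slc27a5. In all, 5 of 9 members were higher in every mouse, against 10.8% of tested genes, a count that includes these near ties. The populations overlapped for each of the 5.

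The unfractionated 4n-whole was set against its fractions in the same fit. In 4n-whole versus 4n-bottom, edgeR called 0 of 9 members, with 0.00572% of tested genes called, and 3 members had an unadjusted p under 0.05, against 5.57% of tested genes. Cyp7a1 was 1.09-fold to 2.48-fold higher in 4n-whole in 4 of 4 mice (log2 fold change 0.82, SE 0.18, edgeR adjusted p = 0.151). DESeq2 with the block called 0 members, and ComBat-seq with DESeq2 called Cyp7a1 (adjusted p = 0.00757), as did edgeR with no filter (2.48e-09) and without mouse 2 (8.43e-06). In 4n-whole versus 4n-top, edgeR and both DESeq2 runs called 0 members, 0% of tested genes were called by edgeR, and 0 members had an unadjusted p under 0.05, against 4% of tested genes. The 95% interval for Cyp7a1 there was −0.35 to 0.47.

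Cyp7b1 (chr3:18117411-18297740 in GRCm39, minus strand), the oxysterol 7-alpha-hydroxylase that follows Cyp27a1 on the alternative route, was not called in any comparison. In 2n-whole of mice 1 to 4 it had 297, 136, 119 and 74.9 CPM. In 4n-whole it had 299.97, 118, 125 and 66.5 CPM. The 4n-bottom libraries had 291, 162, 109 and 85.1 CPM, and those of 4n-top, from mice 2 to 4, had 160, 123 and 72.4 CPM. In every population the mice kept one order at its ends, with mouse 1, where present, the highest and mouse 4 the lowest. In 4n-whole versus 2n-whole the log2 fold change was −0.07 (95% interval −0.27 to 0.14, edgeR adjusted p = 0.78).

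Akr1d1 (chr6:37506822-37545751 in GRCm39, plus strand), the 5-beta-reductase of the sterol ring, ranged from 116 CPM in 4n-whole of mouse 2 to 230.4 CPM in 4n-top of mouse 4. Its log2 fold change in 4n-whole versus 2n-whole was −0.12 (95% interval −0.32 to 0.09). It was lower in 4n-whole in 3 of the 4 mice and higher in mouse 3.

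Slc27a5 (chr7:12722273-12732137 in GRCm39, minus strand), the bile acyl-CoA synthetase, ranged from 498 to 669 CPM. Its libraries in 4n-top lay above all those of 2n-whole, with no call. The log2 fold change was 0.11 (95% interval −0.05 to 0.27) in 4n-whole and 0.19 (95% interval 0.0058 to 0.37, edgeR adjusted p = 0.423) in 4n-top versus 2n-whole. Baat (chr4:49489289-49506563 in GRCm39, minus strand), which joins the activated bile acid to an amino acid, ranged from 182 to 322 CPM, with a log2 fold change of −0.03 (95% interval −0.23 to 0.17) in 4n-whole versus 2n-whole. The lowest library was 4n-whole of mouse 2, and without that mouse the log2 fold change was 0.12 (adjusted p = 0.663).

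Hsd3b7 (chr7:127399597-127402989 in GRCm39, plus strand), the enzyme that acts on the ring after 7-alpha-hydroxylation, was listed at 0 counts in all 15 libraries. In the GENCODE M39 annotation, 98.8% of its 3263 exon bases are shared with exons of other genes, and 38 bases are its own. Gm49388, on the same strand, shares 1717 of them and was also listed at 0 in all libraries, and 9430064I24Rik, on the opposite strand, shares 2208 and had 0 to 8 counts. Whether shared reads were dropped in counting was not tested, so nothing is drawn about the expression of Hsd3b7.

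Nr1h4 (chr10:89289742-89369497 in GRCm39, minus strand), which encodes FXR, ranged from 83.4 to 152 CPM, with mouse 3 the highest in each population. Its log2 fold changes in the 6 comparisons lay between −0.02 and 0.07. Nr0b2 (chr4:133280678-133283847 in GRCm39, plus strand), the FXR target that encodes SHP, had 36.8, 24.1, 17.6 and 21.6 CPM in 2n-whole of mice 1 to 4. It had 40.7, 20.0, 18.5 and 17.7 CPM in 4n-whole. The 4n-bottom libraries had 41.9, 21.95, 19.2 and 21.7 CPM, and those of 4n-top, from mice 2 to 4, had 23.3, 17.5 and 14.2 CPM. All 3 libraries of mouse 1 were above every library of the other mice. In 4n-whole versus 2n-whole the log2 fold change was −0.08 (95% interval −0.34 to 0.18, edgeR adjusted p = 0.786).

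The 250 bases before the start of Nr0b2 in the same table (GRCm38.p6, chr4:133553126-133553375, plus strand) are shown because NR5A2 is a known activator of this gene as well. Capitals mark its letters CAAGGNCA, found as CAAGGCCA from 201 to 194 bases before the start.
Nr0b2: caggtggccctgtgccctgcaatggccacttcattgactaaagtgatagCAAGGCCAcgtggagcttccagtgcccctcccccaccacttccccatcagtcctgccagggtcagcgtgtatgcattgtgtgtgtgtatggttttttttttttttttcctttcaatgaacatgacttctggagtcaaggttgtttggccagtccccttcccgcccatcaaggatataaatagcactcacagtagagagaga
Of the 10 members, 6 have a window in the table, and CAAGGNCA was found in 2 of these, Cyp8b1 and Nr0b2. The inverted repeat that FXR binds, read as GGTCA and TGACC with 1 base between them, was found in 0 of the 6 and in 0.0335% of all windows, which says only that these letters are not in these windows.

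Several members thus stood apart in mouse 1. Its Cyp7a1 was the lowest of all mice in 2n-whole and 4n-bottom, and its Nr0b2 (36.8 to 41.9 CPM against 14.2 to 24.1 CPM) and Cyp7b1 (291 to 299.97 CPM against 66.5 to 162 CPM) were the highest. Nr1d1, a clock repressor known to act on this pathway, had 67.6 to 73.9 CPM in mouse 1 and 17.9 to 27.1 CPM in the others. The time of day and feeding state of each mouse are not given in the sources used here, and their part in these levels was not tested.

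Over the 15 libraries, which come from 4 mice and so are not independent, Pearson's r on log2 CPM was −0.73 between Cyp7a1 and Nr0b2 and 0.87 between Cyp7b1 and Nr0b2. With the mouse effect removed it was −0.29 and 0.36. For pairs of the members that rose, r with the mouse removed was 0.89 for Cyp7a1 and Cyp8b1, 0.90 for Cyp7a1 and Cyp27a1 and 0.98 for Cyp8b1 and Cyp27a1. These values describe shared levels across libraries that also share their population, and no test was made of them.

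**Figure D3:**
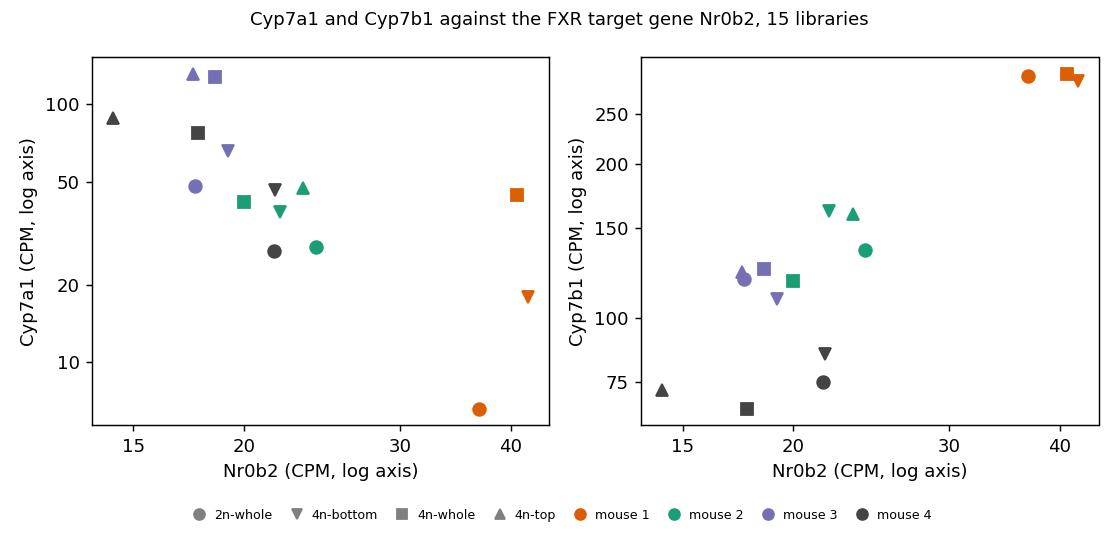
CPM (log axes) of Cyp7a1 (left) and Cyp7b1 (right) against Nr0b2 in the 15 libraries, with colour for the mouse and shape for the population. The 3 libraries of mouse 1 stand apart at 36.8 to 41.9 CPM of Nr0b2, and the other 12 lie between 14.2 and 24.1 CPM.

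Levels between members were compared per length. In 2n-whole the mean RPKM fell from 189 for Slc27a5 through 115 for Baat, 90.7 for Cyp8b1, 56.6 for Cyp27a1, 39.1 for Akr1d1, 21.2 for Nr1h4, 13.3 for Cyp7b1 and 11.6 for Nr0b2 to 6.56 for Cyp7a1. The libraries of Baat and Cyp8b1 overlapped, as did those of Nr1h4, Cyp7b1, Nr0b2 and Cyp7a1 in neighbouring pairs. The other neighbours in this order did not. RPKM divides by all exon bases, and for Cyp27a1 2233 of 3321 are not shared with another gene. If shared reads were dropped in counting, which was not tested, its RPKM is too low and its place below Cyp8b1 is not settled. In 4n-whole Cyp8b1 (161 ± 40.5 RPKM, SD, n = 4) had the second highest mean, above Baat (114 ± 25.5 RPKM), though their libraries overlapped, and Cyp7a1 (17.4 ± 9.56 RPKM) moved from the lowest mean to above Cyp7b1 (12.9 ± 8.64 RPKM) and Nr0b2 (11.3 ± 5.12 RPKM), which it also overlapped.

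The balance between the steps was read as ratios of RPKM within a library, as a description. Cyp7a1 per Cyp7b1, the 7-alpha-hydroxylases of the 2 routes, was 0.0627, 0.581, 1.14 and 1.01 in 2n-whole of mice 1 to 4 and 0.42, 0.995, 2.89 and 3.28 in 4n-whole. It was higher in 4n-whole in each mouse. Cyp8b1 per Cyp7a1 was 49.9, 11.8, 9.85 and 14.1 in 2n-whole and 13.1, 12.0, 6.97 and 9.17 in 4n-whole, and 49.9 in mouse 1 stood far above the rest. In 4n-bottom of mice 1 to 4 it was 25.5, 13.2, 11.7 and 12.1. In 4n-top, which has no library of mouse 1, it was 11.2, 7.94 and 7.90 in mice 2 to 4.

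The likeness of other genes to Cyp7a1 and Cyp8b1 was measured by Pearson's r over the 15 libraries with the mouse effect removed, among 7363 genes with an average log2 CPM of at least 3. For Cyp7a1 the nearest were Aldh3a2 (0.99), Cyp2c67 (0.97) and Cyp2e1 (0.97). For Cyp8b1 they were Ces3a (0.98), Elovl3 (0.97) and Hsd3b5 (0.97). Because these genes were picked for sharing the members' pattern over the same populations, their own differences in 4n-whole versus 2n-whole are given as values with no test, and the log2 fold changes ran from 0.24 for Ces3a to 1.71 for Cyp2e1.

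Transcripts that mark positions in the lobule differed between populations in the same comparisons as the members. All 16 pericentral markers were called higher in 4n-whole versus 2n-whole, with a median log2 fold change of 1.58. Versus 2n-whole, 8 were called higher in 4n-bottom and 11 in 4n-top. Of all tested genes, 1.74%, 0.234% and 0.44% were called higher in 4n-whole, 4n-bottom and 4n-top. The shares called in either direction were 3.47%, 0.463% and 0.961%. Without the block, 4, 0 and 1 of the pericentral markers were called higher. Their summed CPM ranged from 819 to 1229 for 2n-whole, from 1347 to 4202 for 4n-whole, from 1309 to 2946 for 4n-bottom, and from 1358 to 4448 for 4n-top. Of 16 periportal markers, 4 (Ctsc, Cyp2f2, Cdh1 and Hsd17b13) were called lower in 4n-whole (median −0.26), of which 1 was called without the block, and 3 in 4n-top, of which none was called without it. In 4n-bottom edgeR and both DESeq2 runs called 0, with 4 at an unadjusted p under 0.05, against 10.2% of all tested genes. In 4n-top versus 4n-bottom no pericentral marker was called higher by edgeR or either DESeq2 run. Glul was called lower by edgeR, and DESeq2 with the block called Glul and Slc1a2 lower. At an unadjusted p under 0.05 there were 11 pericentral markers, against 2.79% of all tested genes. Of these, 9 were higher in 4n-top, among them Rgn, Cyp1a2 and Cyp2e1, and Glul and Slc1a2 were lower. No periportal marker was called by edgeR there, and DESeq2 with the block called Sult5a1 lower. The periportal markers at an unadjusted p under 0.05 were Sult5a1, Cdh1, Ctsc, Sds, Hal and Hsd17b13, all lower in 4n-top. Some settings that called Cyp7a1 in 4n-top versus 4n-bottom also called pericentral markers higher. With no filter on low counts edgeR called 4 (Cyp1a2, Cyp2c29, Cyp2e1 and Rgn). With only the compared libraries it called 3 (Cyp2c29, Cyp2e1 and Rgn). ComBat-seq with DESeq2 called Cyp7a1 but no pericentral marker higher. The marker calls of the fit without mouse 2, which also called Cyp7a1, are not given here. Of 4 midlobular markers, 3 were tested, and Igfbp2 was called higher and Mup3 lower in 4n-whole versus 2n-whole. Cholangiocyte markers, 5 of 7 of them tested, summed to 35.2 to 47.8 CPM in 2n-whole and 16.6 to 31.2 CPM in 4n-whole, with Spp1 and Sox9 called lower. In the same comparison the endothelial marker Ptprb was called lower (log2 fold change −1.03, edgeR adjusted p = 0.0387), and the mean summed level was 21.3 and 17.0 CPM for endothelial markers, 5.18 and 1.38 CPM for Kupffer cell markers, and 4.50 and 3.07 CPM for stellate cell markers, in 2n-whole and 4n-whole. Of the hepatocyte markers, Serpina1c was called lower and the other 9 were not called. The part of the lobular position or of other cells in the members' differences was not tested.

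Beyond the members, 15 of 16 other genes of bile acid synthesis were tested. In 4n-whole versus 2n-whole 1 was called higher and 1 lower, where 3.47% of all tested genes were called. The median log2 fold change of the list was 0.08. Akr1c6, an aldo-keto reductase, had 290 ± 95.5 CPM in 2n-whole and 477 ± 188 CPM in 4n-whole (SD, n = 4; log2 fold change 0.71, edgeR adjusted p = 0.00391), and it was also called in 4n-top versus 2n-whole (0.94, adjusted p = 7.45e-04). Cyp39a1, the 7-alpha-hydroxylase for 24-hydroxycholesterol, fell from 51.4 ± 23.7 to 32.2 ± 20.9 CPM (log2 fold change −0.76, edgeR adjusted p = 0.00199). Cyp2a12, which acts on bile acids in mice, had −0.22 (adjusted p = 0.142). Ch25h was at 0 counts in all libraries. In 4n-top versus 4n-bottom none of the 15 was called by edgeR or by either DESeq2 run. An unadjusted p under 0.05 was found for 2, against 2.79% of all tested genes. Those with the smallest p were Akr1c6 (0.44), Sult2a8 (0.28) and Cyp2c70 (0.18, as log2 fold changes).

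Of 15 other regulators, 14 were tested and 1 was called in 4n-whole versus 2n-whole, where 3.47% of all tested genes were called. The median log2 fold change of the list was 0.11. Ppargc1a, a coactivator of fasting metabolism, fell from 23.5 ± 8.30 to 15.5 ± 5.25 CPM (log2 fold change −0.59, SE 0.13, edgeR adjusted p = 0.00682), a call lost without mouse 4 and with only the compared libraries. Nr1h3, which encodes the oxysterol receptor LXR alpha, had 0.40 (adjusted p = 0.0131), under the fold limit, and Nr1i2, which encodes PXR, had 0.30 (adjusted p = 0.0925). Fgf15, the intestinal hormone that signals bile acid return to the liver, reached at most 0.408 CPM and was not tested. Between 4n-top and 4n-bottom none of the 14 was called by edgeR or by either DESeq2 run. An unadjusted p under 0.05 was found for 1, against 2.79% of all tested genes. The smallest p-values belonged to Ppargc1a (log2 fold change −0.36), Nr1d1 (−0.26) and Dbp (−1.69, at no more than 1.77 CPM in any library).

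Among 13 bile acid and sterol transporters none was called by edgeR or either DESeq2 run in 4n-whole versus 2n-whole. At an unadjusted p under 0.05 there were 5, against 20.4% of all tested genes. The median log2 fold change was 0.04. Abcg8, part of the sterol exporter to bile, had 0.36 (edgeR adjusted p = 0.0418, under the fold limit), the uptake carrier Slc10a1 had −0.31 (adjusted p = 0.0803) and the uptake carrier Slco1a1 had 0.38 (adjusted p = 0.0807). Slco1a1 was called in 4n-top versus 2n-whole (0.57, edgeR adjusted p = 0.0425), a call that DESeq2 with the block did not make and that was lost without mouse 1, 3 or 4. Without the block, none of the calls among these other genes held. Between 4n-top and 4n-bottom none was called by edgeR or either DESeq2 run. An unadjusted p under 0.05 was found for 1, against 2.79% of all tested genes. The smallest p-values belonged to Slc51a, at no more than 0.572 CPM in any library, Slco1b2 (log2 fold change 0.27) and Abcc4 (−0.92, at no more than 3.10 CPM).

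**Figure D4:**
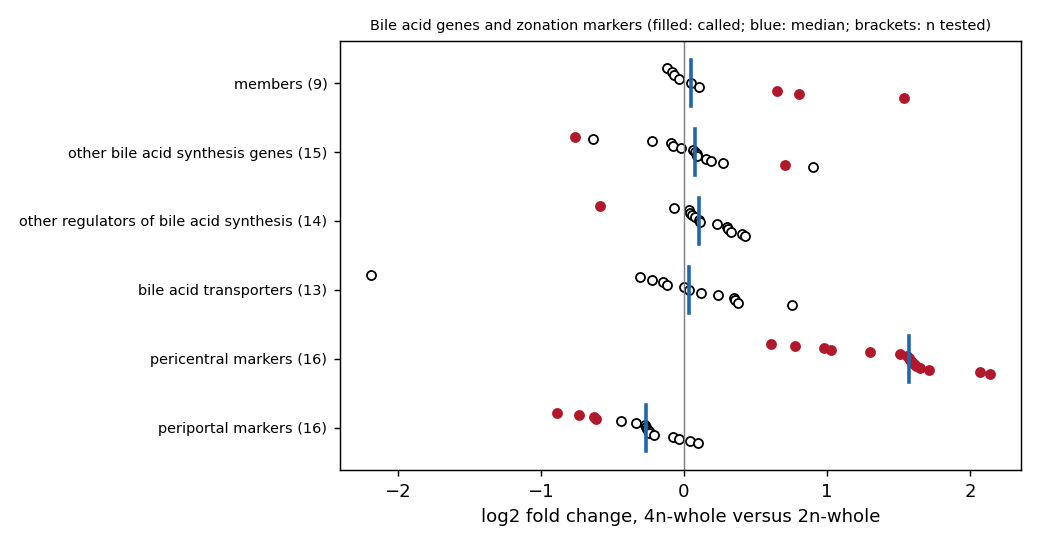
Log2 fold change in 4n-whole versus 2n-whole of each tested gene of 6 lists (points, filled red where called), with the list's median as a blue line and the number tested in brackets. The members split into 3 called genes between 0.65 and 1.54 and 6 near 0, whereas all 16 pericentral markers lie to the right of 0.5.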

How the data were processed

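RNA was extracted from sorted hepatocytes and 15 libraries were made with the Takara SMART-Seq Stranded Kit. The authors deposited raw counts of reads per gene for 55984 symbols, unnormalized and not adjusted for the mouse. The submitters' processing notes name STAR 2.7.11a, featureCounts and GRCm39, and the annotation, strand setting and handling of read pairs, overlapping genes and multimapping reads are not given in the sources used here. Among counts of 1 to 10, 74.2% to 81.4% per library were even, so a fragment may count more than once. Of the deposited count columns, 0 were left unused.

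Groups and mice were taken from the sample titles. Counts were analysed in R 4.3.3 with edgeR 4.0.16: TMM scaling, the low-count filter (minimum count 10, minimum total 15), the population as factor, the mouse as replicate block, all 15 libraries, and a quasi-likelihood F test for each of 6 comparisons with Benjamini-Hochberg adjustment over 17488 genes. CPM used TMM-scaled totals, RPKM used merged GENCODE M39 exon lengths, which may differ from the authors' annotation, and log2 CPM used a prior count of 2, with the mouse removed by limma 3.58.1. The block follows the same animal. Residuals of same-mouse libraries correlated at 0.0845 to 0.227 in 21 pairs, and 15 of 15 libraries correlated best with their own mouse.

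Alternatives were no replicate block, DESeq2 1.42.0 with the block, DESeq2 size factors, no filter, no fold limit, ComBat-seq (sva 3.50.0) with DESeq2, only the compared libraries, and leaving out each mouse. The code was tested on simulated data. The members and gene lists were chosen with earlier results of these data known. Named are all members. From the lists of other synthesis genes, other regulators and transporters, genes called in any comparison and the 3 with the smallest p in 4n-whole versus 2n-whole and in 4n-top versus 4n-bottom are named. Zonation and cell type lists are given by counts and sums, with single genes named where they moved beside a member. Also named are the 3 genes most correlated with Cyp7a1 and with Cyp8b1. Promoters were matched by symbol.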

Additional observations from a re-analysis of the deposited data

Results flagged for a closer look

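Nr0b2 in mouse 1 stood apart from the other 3 mice in 2 of the 27 combinations of member and population that were large enough to examine. In 4n-bottom, mouse 1 had 41.897 CPM and the others 19.167 to 21.952 CPM, a gap of 0.877 of the whole range. In 4n-whole, mouse 1 had 40.701 CPM and the others 17.731 to 20.004 CPM, a gap of 0.901 of the range. Chance marks about 1 in 20 such groups. No Nr0b2 difference between populations was called with or without this mouse.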

How the results depend on the processing

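Of 540 comparisons of a member's log2 fold change with an alternative, 495 had the same direction and the same call, 6 calls were lost, 12 were gained, and in 27, called in neither fit, the sign differed. The replicate block pairs libraries of the same mouse. Without it, members called were 1 in 4n-whole versus 2n-whole and 0 in 4n-top and 0 in 4n-bottom versus 2n-whole, and genes called were 40, 2 and 0, and 0 between 4n-top and 4n-bottom and between 4n-whole and 4n-bottom, with 335 and 377 at an unadjusted p under 0.05. The cause was not tested. In 4n-top versus 4n-bottom, 1 member was called with no filter, with ComBat-seq and with only the compared libraries. In 4n-bottom versus 2n-whole, 2 were called under these settings, Cyp8b1 and Cyp7a1. With no fold limit 2 were called as well, but these were Cyp8b1 and Cyp27a1. In 4n-whole versus 4n-bottom, 1 was called with no filter and with ComBat-seq.

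Genes called in 4n-whole versus 2n-whole were 957 with no fold limit, 1158 with ComBat-seq and 305 with only the compared libraries. In 4n-top versus 4n-bottom they were 44 with DESeq2 and the block, 25 with no filter, 20 with ComBat-seq and 15 with only the compared libraries. In 4n-bottom versus 2n-whole they were 143, 145 and 282 with DESeq2, no filter and ComBat-seq, and in 4n-top versus 2n-whole 328, 261, 550 and, with only the compared libraries, 300. In 4n-whole versus 4n-bottom they were 44, 45 and 31, with 3 under DESeq2 size factors and 0 with only the compared libraries (744 at an unadjusted p under 0.05), and in 4n-whole versus 4n-top 33, 5 and 4. Leaving out 1 mouse at a time gave 244 (without mouse 4) to 1025 (without mouse 3), 0 (mice 3 or 4) to 29 (mouse 2), 49 to 111, 98 to 238, 0 (mouse 1) to 65 (mouse 3) and 0 to 1 genes, in the order 4n-whole versus 2n-whole, 4n-top versus 4n-bottom, 4n-bottom versus 2n-whole, 4n-top versus 2n-whole, 4n-whole versus 4n-bottom and 4n-whole versus 4n-top. Members called were then 3 to 3, 0 to 1, 1 to 2, 3 to 3, 0 to 1 and 0 to 0.

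Signs differed only for values called in neither fit. Without the block, 4n-top, from mice 2 to 4, is set against populations that include mouse 1, whose Cyp7b1 was the highest. For Cyp7b1 in 4n-top versus 4n-bottom the log2 fold change was −0.45 without the block, −0.0014 with DESeq2, −0.0017 with its size factors, −0.0028 with no filter, −0.016 with ComBat-seq, −0.025 with only the compared libraries and −0.048 to 0.096 without 1 mouse. In 4n-top versus 2n-whole it was −0.41 without the block and −0.019 to 0.12 without 1 mouse, and in 4n-bottom versus 2n-whole −0.0023 to 0.14. In 4n-whole versus 4n-top, without the block, it was −0.29 for Cyp7a1, 0.36 for Cyp7b1 and −0.093 for Nr1h4, and −0.12 for Cyp7a1 with only the compared libraries. Leaving out 1 mouse there gave −0.13 to 0.20 for Cyp7a1, −0.032 to 0.10 for Nr1h4 and −0.029 to 0.25 for Nr0b2. It gave −0.13 to 0.12 for Baat in 4n-whole versus 2n-whole, −0.029 to 0.13 for Nr1h4 in 4n-top versus 4n-bottom, −0.078 to 0.11 for Nr1h4 and −0.28 to 0.0087 for Nr0b2 in 4n-top versus 2n-whole, −0.0087 to 0.087 for Nr0b2 in 4n-bottom versus 2n-whole, and −0.20 to 0.044 for Akr1d1 and −0.041 to 0.015 for Slc27a5 in 4n-whole versus 4n-bottom. Depth did not limit the 9 tested members, which had at least 268 counts in every library.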
